A study of Homo sapiens with 24 samples.

Results

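The genes described here are 9 transcriptional targets of the tumour suppressor protein p53: MDM2, PPM1D, GADD45A, SESN1, ZMAT3, RRM2B, TP53I3, FAS and TP53INP1. They were chosen by name and not by a limit on their values, though with earlier results of these data known, and make up 9 of the 57820 genes with a row in the deposited counts. All 9 passed the filter on low counts in every comparison. RNA was sequenced from U2OS cells, an established human osteosarcoma line, and from AID-DIvA cells, U2OS cells that carry the AsiSI restriction enzyme under the control of 4-hydroxytamoxifen, an inducer that the RNA-seq samples did not receive as far as the labels tell. Each line was used as wild type (WT) and with a knockout of ID3 (ID3-KO). ID3 is an inhibitor of the DNA binding of E proteins, and whether the knockout cells are 1 clone is not given in the sources used here. The treatment was mocetinostat, a class I histone deacetylase (HDAC) inhibitor, given for 24 h at a dose that the sources used here do not state for this experiment. The 8 groups, with 3 biological replicates each, were untreated U2OS WT, treated U2OS WT, untreated U2OS ID3-KO, treated U2OS ID3-KO, untreated AID-DIvA WT, treated and recovered AID-DIvA WT, untreated AID-DIvA ID3-KO, and treated and recovered AID-DIvA ID3-KO. The sample titles and the study's text call the controls untreated, while headings of a supplementary figure on these comparisons name DMSO. Recovered cells had another 24 h in medium without the drug. That the treated U2OS cells were collected before recovery was inferred from the methods and the series description, and because stage then coincides with the cell line label, their parts cannot be told apart.

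The sample titles and the labels' treatment entry contradict each other in all 12 AID-DIvA libraries. The library names and the names of the deposited counts give the same groups as the titles, which were used. If the other entry were right, every AID-DIvA response and interaction given here would change its sign, the untreated AID-DIvA genotypes would be treated and recovered ones, and the differences after against before recovery would be other quantities, which are not given. In U2OS cells, where the labels do not conflict, GADD45A and CDKN1A rose with treatment, and under the titles both rose in AID-DIvA cells too. GADD45B rose in U2OS WT cells by 0.89 (log2) and under the titles fell in AID-DIvA WT cells by 0.60. These genes do not decide between the titles and the other entry. Replicate 1 of untreated U2OS WT stood apart from replicates 2 and 3 of its group, with chi-square statistics per gene of 92.4 and 82.0 against 2.62 to 24.5 for the 22 other pairs of replicates, so results are also given without it where that made or ended a call of a member or moved the counts given. Total counts lay between 37878751 and 76906266 per library, and members had between 297 and 7859 counts each. ID3 RNA was lower in the knockout cells but did not vanish, at 29.3 to 67.3 CPM (counts scaled to the size of the library) in ID3-KO libraries and 47.9 to 129 CPM in WT libraries. Reads over the exons do not check whether a disrupted gene still makes protein. The osteosarcoma label was checked on SPARC (871 to 1550 CPM), COL1A1 (824 to 2528 CPM), RUNX2 (11.8 to 47.9 CPM) and the mesenchymal VIM (433 to 944 CPM), all present. The osteoblast markers SP7, IBSP and BGLAP did not exceed 0.689 CPM, COL1A2 did not exceed 1.37 CPM and ALPL lay between 0.618 and 6.95 CPM. Of the markers of other cell types, CD3E, PTPRC and ALB did not exceed 0.407 CPM, and CDH1, VWF and EPCAM reached 2.0, 10.04 and 10.4 CPM.

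p53 is a transcription factor that is stabilised after DNA damage and other stress and then activates genes of growth arrest, repair and cell death. MDM2, an E3 ubiquitin ligase, and PPM1D, the phosphatase WIP1, are targets that act back on the pathway and restrain it. GADD45A binds cell cycle and repair factors, SESN1 (sestrin 1) restrains mTORC1 signalling, ZMAT3 is a zinc finger RNA-binding protein, and RRM2B (p53R2) is a ribonucleotide reductase subunit that supplies deoxynucleotides for repair. TP53I3 (PIG3) is a quinone oxidoreductase linked to oxidative stress, FAS is a death receptor, and TP53INP1 is a stress protein linked to autophagy and cell death. p53 binds DNA at a pair of half-sites, each a decamer with a C and a G at fixed places in its core.

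The 250 bases before a gene's start were read for 6 members, which have 14 starts in the RefSeq table for GRCh38.p14: MDM2, PPM1D, SESN1, ZMAT3, TP53I3 and FAS. A search for 2 adjacent half-sites of the p53 consensus, with the core C and G intact in both and at most 3 mismatches over the 20 bases, was chosen after these windows had been seen. Both strands were searched, and the consensus reads the same on either. Such a pair was found before 1 or more starts of 3 members, MDM2, SESN1 and FAS, and before 0.914% of 35116 promoters, or at any start of 1.12% of 27305 genes. The windows of MDM2 and SESN1 are shown because they hold such a pair (in capitals) before a start that lies inside the longer gene, and they frame the expression data given for the same genes. They lie at chr12:68808767-68809016 on the plus strand and chr6:109008989-109009238 on the minus strand, and are printed 5′ to 3′ with the last base next to the start.
MDM2: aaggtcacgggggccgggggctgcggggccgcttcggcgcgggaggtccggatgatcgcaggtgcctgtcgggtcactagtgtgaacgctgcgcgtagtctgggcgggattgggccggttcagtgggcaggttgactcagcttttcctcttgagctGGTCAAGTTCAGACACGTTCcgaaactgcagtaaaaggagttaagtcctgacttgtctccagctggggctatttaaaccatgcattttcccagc
SESN1: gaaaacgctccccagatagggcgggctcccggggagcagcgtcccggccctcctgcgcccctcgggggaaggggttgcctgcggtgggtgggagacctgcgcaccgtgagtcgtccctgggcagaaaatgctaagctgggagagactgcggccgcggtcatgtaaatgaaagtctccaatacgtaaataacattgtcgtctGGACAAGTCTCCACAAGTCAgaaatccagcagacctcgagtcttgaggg
For FAS only the pair itself is shown, at chr10:88991309-88991328 on the plus strand. It too stands before a start inside the longer gene, in a window whose 250 bases all lie in a transcript of FAS.
FAS: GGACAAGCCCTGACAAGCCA
A single exact match to the p53 half-site consensus was found for 2 members, SESN1 and FAS, against 6.8% of genes with a match before any of their starts. The E-box CANNTG, the motif of the E proteins that ID3 binds, stood before 1 or more starts of 4 of the 6 members, against 66.7% of genes, and before 9 of the 14 starts, against 61.8% of promoters. The GC box GGGCGG, searched like the E-box on both strands, stood before 5 of the 6 members, against 46.2% of genes, and before 11 of the 14 starts, against 42.6% of promoters. The 14 starts of 6 genes are not independent. These matches describe the letters of the windows and say nothing on binding in these cells.

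Set on a scale that allows genes to be compared, CPM per kilobase of exonic length, the mean level over the 24 libraries was highest for GADD45A (29.9), TP53I3 (24.2), PPM1D (21.9) and RRM2B (16.3). MDM2 had 8.71, ZMAT3 4.48, FAS 3.99, TP53INP1 3.62 and SESN1 1.98 CPM per kilobase. Between the highest and the lowest of its 8 group means, TP53I3 varied 2.73-fold, GADD45A 2.16-fold, FAS 2.06-fold and SESN1 1.97-fold. MDM2 varied 1.67-fold, RRM2B 1.54-fold, TP53INP1 1.53-fold, ZMAT3 1.33-fold and PPM1D 1.29-fold. In bulk RNA, a lower level per cell and fewer cells that express a gene cannot be told apart.

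**Figure D1:**
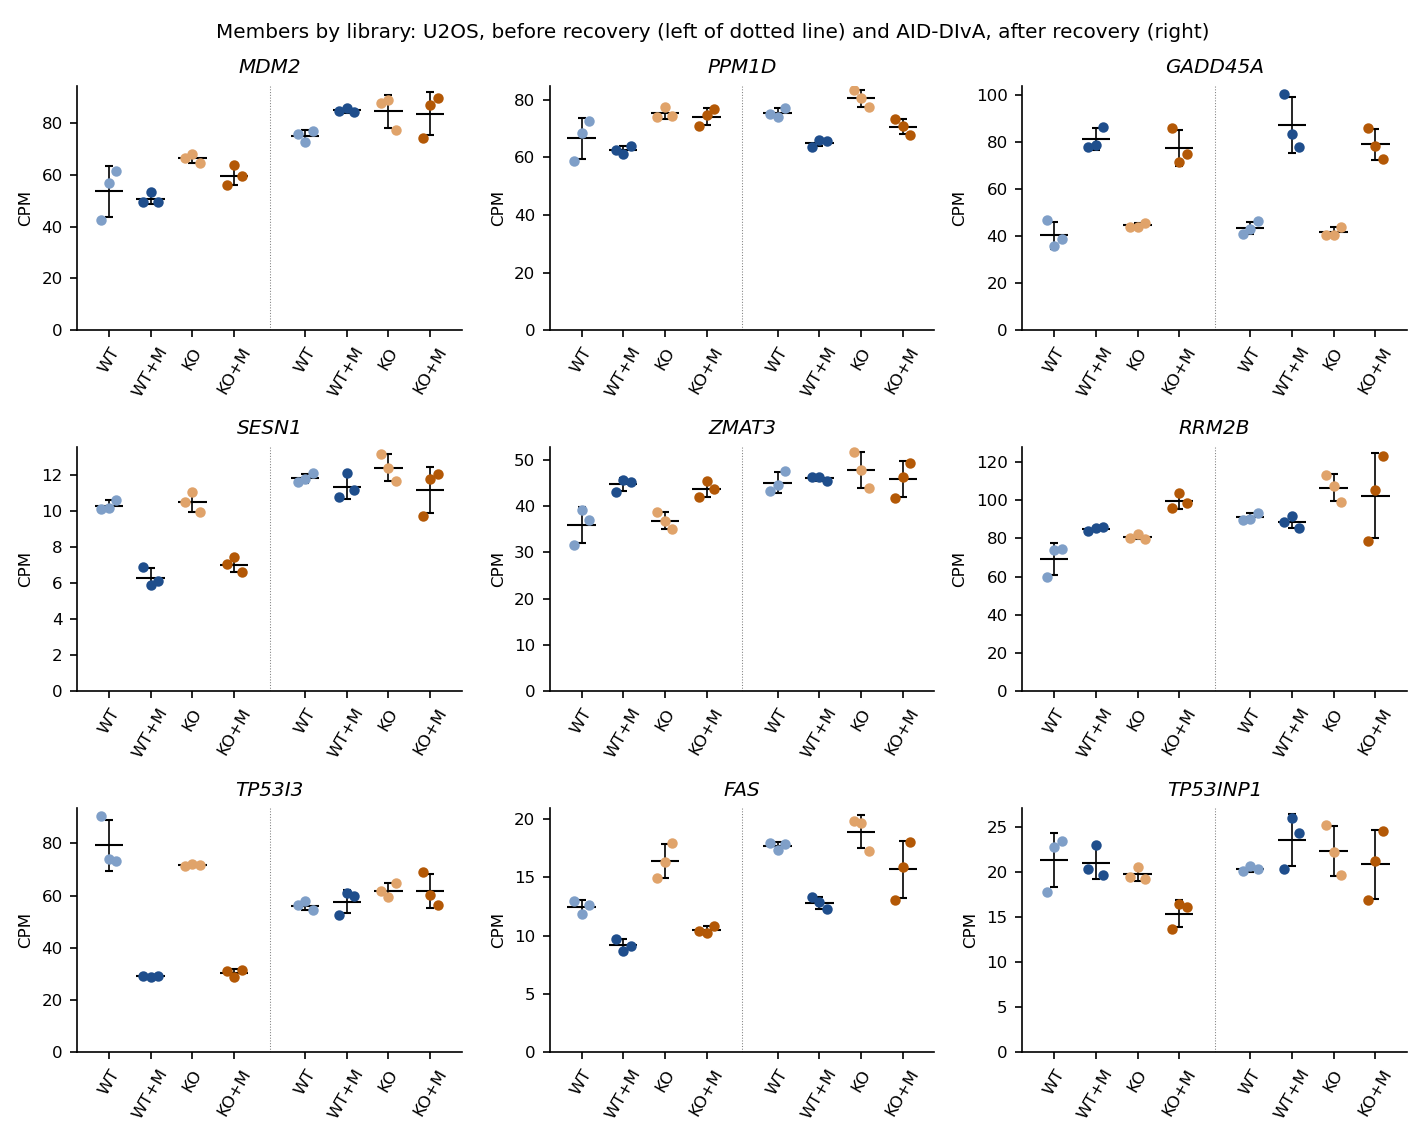
CPM of each of the 9 genes (1 panel a gene, y axis from 0) in every library, with the group mean (line) and SD (bar, n = 3); WT is blue, ID3-KO orange, and +M marks mocetinostat, before recovery in U2OS cells left of the dotted line and after recovery in AID-DIvA cells right of it. GADD45A was at 71.4 CPM or more in the 12 mocetinostat libraries and at 46.7 CPM or less in the 12 untreated ones, and TP53I3 was at 31.3 CPM or less in the 6 treated U2OS libraries and at 52.5 CPM or more in the other 18.

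The 4 mocetinostat responses asked how the drug changed these genes in each genotype, before and after recovery. GADD45A rose in all 4, to 1.74- to 2.03-fold of the untreated level. TP53I3 fell in U2OS cells of both genotypes, and SESN1 fell there too, while neither passed the test after recovery in AID-DIvA cells. FAS fell in 3 of the 4 responses. ZMAT3 and RRM2B rose in U2OS cells of both genotypes, and PPM1D fell in AID-DIvA cells of both genotypes. With the call set at an adjusted p below 0.05 (edgeR quasi-likelihood test, Benjamini-Hochberg over all genes tested), 6 of the 9 members were called in U2OS WT cells, 3 higher and 3 lower, where 48.9% of 21797 genes were called. In U2OS ID3-KO cells 8 were called, 3 higher and 5 lower, against 69.9% of 21176 genes called. After recovery 5 were called in AID-DIvA WT cells, 3 higher and 2 lower (46.9% of 20289 genes called), and 2 in AID-DIvA ID3-KO cells, 1 higher and 1 lower (40.1% of 20362 genes called). With 9 genes, these counts were not read as particular to the members. Without untreated U2OS WT replicate 1 all 9 were called in U2OS WT cells, where the share over all genes was 66.4%. The log2 changes of the members called with all libraries were then 1.14 ± 0.05 for GADD45A, -1.34 ± 0.04 for TP53I3, -0.71 ± 0.09 for SESN1 and -0.40 ± 0.08 for FAS, with ZMAT3 and RRM2B given below. The libraries of treated and untreated cells did not overlap for 6 members in U2OS WT and 8 in U2OS ID3-KO cells, against 61.4% and 72.4% of genes, and for 4 in AID-DIvA WT and 2 in AID-DIvA ID3-KO cells, against 56.1% and 52.5%. The median log2 fold change of the members was -0.07 in U2OS WT, -0.15 in U2OS ID3-KO, 0.04 in AID-DIvA WT and -0.06 in AID-DIvA ID3-KO cells, beside 0.0058, 0.00086, -0.00050 and -0.023 for all genes tested. Of the members, GADD45A in WT cells of both lines was called with a rise of more than 1 on the log2 scale. So were 13.6% of genes in U2OS WT and 4.86% in AID-DIvA WT cells. TP53I3 in U2OS cells of both genotypes was called with a fall of more than 1, as were 5.06% of genes in WT and 5.77% in ID3-KO cells.

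**Figure D2:**
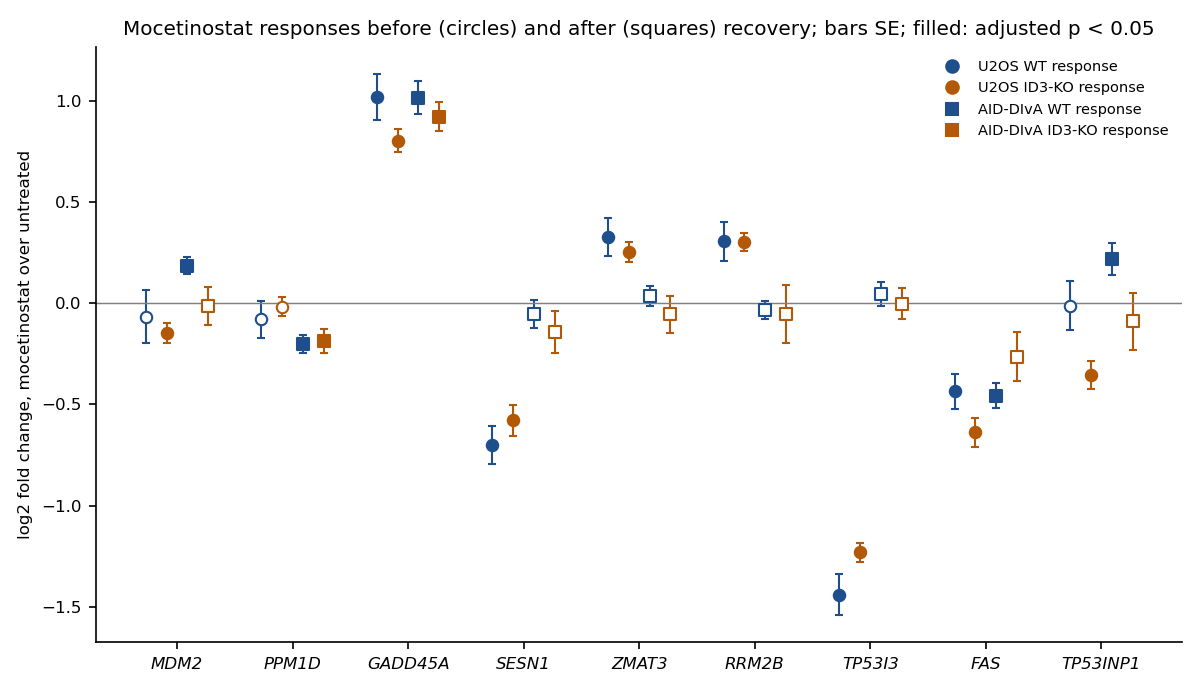
Log2 fold change of mocetinostat over untreated cells (y axis) for the 9 genes (x axis), with SE bars; circles are U2OS cells before recovery, squares AID-DIvA cells after recovery, blue WT and orange ID3-KO, filled where the adjusted p was below 0.05. The GADD45A points lie between 0.80 and 1.02 in all 4 responses, whereas the TP53I3 points lie at -1.44 and -1.23 before recovery and near 0 after it.

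Of the feedback regulators, MDM2 (ENSG00000135679.17, chr12:69201956-69239214 in GRCh37, the build of all gene positions given from here on, plus strand) rose in AID-DIvA WT cells and fell in U2OS ID3-KO cells, both by small amounts. Untreated U2OS WT libraries had 42.7, 56.7 and 61.6 CPM and treated ones 49.5, 53.3 and 49.7 CPM. Untreated U2OS ID3-KO libraries had 66.3, 68.2 and 64.7 CPM and treated ones 56.0, 63.6 and 59.6 CPM. The WT groups overlapped, with the lowest value in the replicate that stood apart, and the ID3-KO groups did not. In AID-DIvA WT cells MDM2 went from 75.7, 72.8 and 76.8 CPM untreated to 84.5, 85.9 and 84.3 CPM recovered. In AID-DIvA ID3-KO cells the values were 87.6, 88.8 and 77.2 CPM untreated and 74.2, 86.9 and 89.6 CPM recovered. The 12 AID-DIvA libraries all lay above the 12 U2OS libraries, but the lines were not compared by a test here. MDM2 rose in AID-DIvA WT cells by 0.19 ± 0.04 (log2, SE; adjusted p = 0.00298) and fell in U2OS ID3-KO cells by 0.15 ± 0.05 (adjusted p = 0.0115, edgeR). The latter call was lost without untreated ID3-KO replicate 2 (adjusted p = 0.0661) or treated ID3-KO replicate 1 (0.0547). In U2OS WT cells the log2 difference was -0.07 ± 0.13 (adjusted p = 0.702), and without untreated replicate 1 it was -0.21 ± 0.04 (adjusted p = 4.29e-05). The gene shares its 3′ end with the carboxypeptidase M gene on the opposite strand, and its counts from the reverse strand were 121.6% of those from either strand. The directions of the called MDM2 responses were the same with the reverse-strand counts.

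PPM1D (chr17:58677544-58741849, plus strand) had the narrowest range of the 9 genes. In AID-DIvA WT cells it went from 75.1, 73.9 and 77.2 CPM to 63.7, 66.1 and 65.6 CPM after treatment and recovery. In AID-DIvA ID3-KO cells it went from 83.3, 80.7 and 77.3 CPM to 73.2, 70.9 and 67.9 CPM. Neither pair of groups overlapped. PPM1D fell by 0.20 ± 0.04 on the log2 scale in WT cells (adjusted p = 0.00183) and by 0.19 ± 0.06 in ID3-KO cells (adjusted p = 0.0302, edgeR). The ID3-KO call was lost in 4 of 6 fits that left out 1 library, namely without recovered replicate 2 (adjusted p = 0.0830) or 3 (0.133) or untreated replicate 1 (0.175) or 2 (0.0817), with DESeq2 (0.0520) and without the filter on low counts (0.0946). In U2OS cells the group means were 66.5 ± 7.11 (SD, n = 3) and 62.5 ± 1.46 CPM in untreated and treated WT cells, and 75.2 ± 1.81 and 74.0 ± 2.94 CPM in ID3-KO cells. These log2 differences, -0.08 ± 0.09 and -0.02 ± 0.05, did not pass the test. Without untreated U2OS WT replicate 1 the WT difference was -0.16 ± 0.04 (adjusted p = 0.000381).

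Of the genes of growth arrest and stress, GADD45A (chr1:68150744-68154021, plus strand) gave the same answer in all 4 responses. U2OS WT cells had 46.7, 35.7 and 38.5 CPM untreated and 78.0, 78.8 and 86.5 CPM treated. U2OS ID3-KO cells had 44, 44 and 45.6 CPM untreated and 85.9, 71.4 and 74.7 CPM treated. The groups lay far apart in both genotypes. AID-DIvA WT cells had 41.0, 42.9 and 46.2 CPM untreated and 100.4, 83.5 and 77.7 CPM recovered. AID-DIvA ID3-KO cells had 40.6, 40.4 and 44 CPM untreated and 85.8, 78.4 and 72.7 CPM recovered. The order of the 8 group means put the 4 mocetinostat groups first, from 87.2 to 77.3 CPM, and the 4 untreated groups last, from 44.5 to 40.3 CPM, and within each of these sets neighbours overlapped. The log2 rise was 1.02 ± 0.11 in U2OS WT (adjusted p = 0.000237), 0.80 ± 0.06 in U2OS ID3-KO (2.48e-11), 1.02 ± 0.08 in AID-DIvA WT (1.89e-06) and 0.92 ± 0.07 in AID-DIvA ID3-KO cells (1.05e-05). It was larger than the change of 85.6%, 82.3%, 95.2% and 94.4% of the genes tested. All 4 calls at an adjusted p below 0.05 held in every alternative fit.

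SESN1 (chr6:109307640-109416022, minus strand), the gene whose window above holds an exact half-site, fell before recovery. In U2OS WT cells the values were 10.2, 10.2 and 10.7 CPM untreated and 6.91, 5.89 and 6.11 CPM treated. In U2OS ID3-KO cells they were 10.5, 11.1 and 9.98 CPM untreated and 7.06, 7.46 and 6.61 CPM treated. Treated and untreated groups did not overlap in either genotype. SESN1 fell by 0.70 ± 0.10 on the log2 scale in WT (adjusted p = 0.000609) and by 0.58 ± 0.08 in ID3-KO cells (5.56e-07). After recovery the group means were 11.8 ± 0.252 untreated and 11.4 ± 0.684 CPM recovered in AID-DIvA WT cells and 12.4 ± 0.770 and 11.2 ± 1.29 CPM in ID3-KO cells (SD, n = 3). Those groups overlapped, with log2 differences of -0.05 ± 0.07 (adjusted p = 0.559) and -0.14 ± 0.10 (0.308). SESN1 was the member with the fewest counts, 297 to 909 per library.

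ZMAT3 (chr3:178735011-178790067, minus strand) moved the other way in the same cells. The U2OS WT libraries gave 31.5, 39.1 and 37 CPM untreated and 43.1, 45.6 and 45.3 CPM treated. The U2OS ID3-KO libraries gave 38.7, 36.7 and 35.1 CPM untreated and 42.0, 45.4 and 43.7 CPM treated. The groups did not overlap in either genotype. The rise was 0.33 ± 0.09 (log2) in WT cells (adjusted p = 0.0206) and 0.25 ± 0.05 in ID3-KO cells (0.000151). The WT call was lost without treated replicate 1 (adjusted p = 0.0564), 2 (0.0821) or 3 (0.0766). Without untreated WT replicate 1 the rise was 0.24 ± 0.05. The 4 AID-DIvA group means were 45.0 to 47.7 CPM and overlapped, and neither response passed the test there.

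RRM2B (chr8:103216730-103251346, minus strand), the deoxynucleotide supplier, resembled ZMAT3 in these responses. U2OS WT cells had 59.6, 73.7 and 74.7 CPM untreated and 83.9, 85.5 and 85.8 CPM treated. U2OS ID3-KO cells had 80.4, 82.5 and 79.8 CPM untreated and 96.1, 104 and 98.7 CPM treated. Treated libraries were above untreated ones in both genotypes. RRM2B rose by 0.31 ± 0.10 on the log2 scale in WT (adjusted p = 0.0313) and by 0.30 ± 0.04 in ID3-KO cells (2.19e-06). The WT call was lost without treated replicate 1 (adjusted p = 0.0906), 2 (0.101) or 3 (0.101). Without untreated WT replicate 1 the rise was 0.21 ± 0.04. Recovered AID-DIvA ID3-KO libraries were spread from 78.6 CPM in replicate 1 to 123 CPM in replicate 3, around an untreated mean of 107 ± 6.94 CPM, and gave a log2 difference of -0.05 ± 0.14 (adjusted p = 0.799). In AID-DIvA WT cells the means were 91.0 ± 2.10 CPM untreated and 88.5 ± 3.13 CPM recovered (SD, n = 3).

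Of the genes linked to cell death, TP53I3 (chr2:24300303-24308731, minus strand) changed most. In U2OS WT cells the values were 90.5, 73.9 and 73.4 CPM untreated and 29, 28.8 and 29.2 CPM treated. In U2OS ID3-KO cells they were 71.2, 72.2 and 71.6 CPM untreated and 31.0, 28.9 and 31.3 CPM treated. No treated library exceeded 31.3 CPM and no untreated one was below 71.2 CPM. TP53I3 fell by 1.44 ± 0.10 on the log2 scale in WT (adjusted p = 2.44e-05) and by 1.23 ± 0.05 in ID3-KO cells (4.34e-16). In order of their changes, it stood at percentile 2.1 of the genes tested in WT and 3.6 in ID3-KO cells. After recovery AID-DIvA WT cells had 52.5, 60.9 and 59.7 CPM against 56.3, 57.8 and 54.6 CPM untreated. AID-DIvA ID3-KO cells had 69.2, 60.2 and 56.5 CPM recovered against 61.8, 59.3 and 64.8 CPM untreated. The groups overlapped, and the log2 differences were 0.05 ± 0.06 (adjusted p = 0.550) and -0.0026 ± 0.08 (0.984). The WT difference passed without recovered replicate 1 (0.11 ± 0.04, adjusted p = 0.0147). In the order of group means, untreated U2OS cells came first, the 4 AID-DIvA groups next with overlapping neighbours, and treated U2OS cells last, apart from the rest. FAM228B overlaps the gene on the opposite strand, and reverse-strand counts were 108.7% of those from either strand.

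FAS (chr10:90750414-90775542, plus strand), the death receptor, fell in U2OS cells of both genotypes and in AID-DIvA WT cells. The U2OS WT libraries gave 13, 11.9 and 12.6 CPM untreated and 9.72, 8.65 and 9.12 CPM treated. The U2OS ID3-KO libraries gave 14.9, 16.3 and 17.9 CPM untreated and 10.4, 10.2 and 10.9 CPM treated. No treated library reached an untreated one of its genotype. In AID-DIvA WT cells FAS went from 17.9, 17.4 and 17.8 CPM to 13.3, 12.9 and 12.3 CPM. In AID-DIvA ID3-KO cells it was at 19.8, 19.7 and 17.3 CPM untreated and at 13.1, 15.9 and 18 CPM recovered, and those groups overlapped in 1 recovered library. FAS fell by 0.44 ± 0.09 in U2OS WT (adjusted p = 0.00436), by 0.64 ± 0.07 in U2OS ID3-KO (3.53e-08) and by 0.46 ± 0.06 in AID-DIvA WT cells (3.90e-05) on the log2 scale. In AID-DIvA ID3-KO cells the difference was -0.26 ± 0.12 (adjusted p = 0.110), and it passed without recovered replicate 3 (-0.36 ± 0.11, adjusted p = 0.0276) and without the filter on low counts (0.0298). ACTA2 overlaps the start of FAS on the opposite strand, and reverse-strand counts of FAS were 97.3% of those from either strand.

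TP53INP1 (chr8:95938200-95961639, minus strand) fell in U2OS ID3-KO cells. It had 19.4, 20.6 and 19.2 CPM untreated and 13.6, 16.4 and 16.1 CPM treated there. U2OS WT cells had 17.8, 22.7 and 23.4 CPM untreated and 20.4, 23.0 and 19.6 CPM treated. Only the ID3-KO groups were apart. The fall in ID3-KO cells was 0.35 ± 0.07 (log2; adjusted p = 7.02e-05), and the WT difference was -0.01 ± 0.12 (0.945). Without untreated WT replicate 1 the latter was -0.13 ± 0.06 (adjusted p = 0.0498). In AID-DIvA WT cells the libraries had 20.1, 20.7 and 20.3 CPM untreated and 20.4, 26.0 and 24.4 CPM recovered, which overlapped, and gave a rise of 0.22 ± 0.08 (adjusted p = 0.0346). That call was lost on leaving out any 1 library but recovered replicate 1: recovered replicate 2 (adjusted p = 0.177) or 3 (0.0898), or untreated replicate 1 (0.104), 2 (0.0759) or 3 (0.101). In AID-DIvA ID3-KO cells the means were 22.3 ± 2.78 CPM untreated and 20.9 ± 3.8 CPM recovered (SD, n = 3).

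Recovered AID-DIvA ID3-KO replicate 1 had the lowest value of its group for MDM2, SESN1, FAS, ZMAT3, TP53INP1 and RRM2B, and the highest for PPM1D, GADD45A and TP53I3. Without this library 2 members were called in the response, as with it.

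A test of the responses before against after recovery, over all 24 libraries, asked which members responded differently in the 2 experiments. TP53I3 and SESN1 differed in both genotypes. The AID-DIvA response minus the U2OS response of TP53I3 was 1.49 ± 0.11 in WT (log2; adjusted p = 4.94e-11) and 1.24 ± 0.11 in ID3-KO cells (1.23e-09). For SESN1 it was 0.65 ± 0.12 (8.44e-05) and 0.44 ± 0.12 (0.00428). ZMAT3 differed downwards, by -0.29 ± 0.11 in WT (adjusted p = 0.0340) and -0.31 ± 0.11 in ID3-KO cells (0.0244). RRM2B differed by -0.36 ± 0.14 in ID3-KO cells (0.0413), and its WT difference of -0.34 ± 0.14 was of like size but missed the threshold (0.0563). The WT difference passed with DESeq2 (adjusted p = 0.0491), with its size factors in edgeR (0.0496) and without the filter on low counts (0.00765), and the ID3-KO call was lost on reverse-strand counts (0.0588). FAS differed in ID3-KO cells by 0.38 ± 0.13 (0.0175). In all, 2 members were called higher and 1 lower in WT cells, where 45.4% of 23087 genes were called, and 3 higher and 2 lower in ID3-KO cells, with 46.0% of genes called. The difference of GADD45A was -0.0022 ± 0.13 in WT and 0.13 ± 0.14 in ID3-KO cells. Without untreated U2OS WT replicate 1, MDM2 was also called in WT cells (0.40 ± 0.09, adjusted p = 0.000787), and ZMAT3 was not (-0.19 ± 0.09, adjusted p = 0.0895). TP53I3 then differed by 1.39 ± 0.09, SESN1 by 0.67 ± 0.12 and RRM2B by -0.23 ± 0.14 (adjusted p = 0.189) in WT cells. The call of ZMAT3 in WT cells was lost in 8 of 24 fits that left out 1 library (adjusted p up to 0.0977): AID-DIvA WT recovered replicate 1, 2 or 3 or untreated replicate 2 or 3, or U2OS WT untreated replicate 1 or treated replicate 2 or 3. In ID3-KO cells it was lost in 5 (up to 0.0921): AID-DIvA recovered or untreated replicate 1, U2OS untreated replicate 2 or 3, or U2OS treated replicate 2. The FAS call was lost without replicate 3 of AID-DIvA ID3-KO recovered (0.0625), AID-DIvA ID3-KO untreated (0.0547) or U2OS ID3-KO untreated cells (0.0664). The RRM2B call in ID3-KO cells held in 10 of the 24 fits. It was lost (adjusted p up to 0.156) without AID-DIvA WT recovered replicate 1, 2 or 3 or untreated replicate 1, AID-DIvA ID3-KO recovered or untreated replicate 1 or 2, U2OS WT treated replicate 1, any untreated U2OS ID3-KO library, or U2OS ID3-KO treated replicate 2 or 3. Without AID-DIvA ID3-KO recovered replicate 1 the difference was -0.19 ± 0.11. In WT cells RRM2B passed without AID-DIvA ID3-KO recovered replicate 1 (adjusted p = 0.00908) or 3 (0.0320) or untreated U2OS WT replicate 2 (0.0412) or 3 (0.0347). TP53INP1 was called in ID3-KO cells without AID-DIvA ID3-KO recovered replicate 1 (0.40 ± 0.16, adjusted p = 0.0441).

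The comparison of untreated ID3-KO with WT cells asked how the genotypes differed without the drug. Whether the knockout cells are 1 clone is not given, so a difference between clones could not be told apart from the knockout. RRM2B and MDM2 were higher in untreated AID-DIvA ID3-KO cells, by 0.21 ± 0.05 (log2; adjusted p = 0.00291) and 0.15 ± 0.05 (adjusted p = 0.0340, edgeR), and neither pair of groups overlapped. RRM2B had 89.6, 89.9 and 93.4 CPM in untreated AID-DIvA WT libraries and 113, 107 and 99.3 CPM in ID3-KO ones. FAS was higher in untreated U2OS ID3-KO cells, by 0.39 ± 0.09 (adjusted p = 0.0284). These were 2 of 9 members, none lower, where 36.7% of 20441 genes were called in AID-DIvA cells, and 1 of 9 where 15.2% of 20621 genes were called in U2OS cells. The MDM2 call was lost without any 1 library other than untreated ID3-KO replicate 3: untreated WT replicate 1 (adjusted p = 0.0847), 2 (0.162) or 3 (0.0690), or untreated ID3-KO replicate 1 (0.109) or 2 (0.115). It was also lost with reverse-strand counts (0.13 ± 0.05, adjusted p = 0.0558). Without untreated AID-DIvA ID3-KO replicate 3, where 44.4% of all genes were called, 5 members were called, with GADD45A lower (-0.14 ± 0.04, log2; adjusted p = 0.0106) and ZMAT3 and TP53INP1 higher by 0.10 ± 0.04 (0.0493) and 0.18 ± 0.05 (0.00731). TP53I3 passed without untreated ID3-KO replicate 2 (0.15 ± 0.05, adjusted p = 0.0335).

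In U2OS cells the calls of this comparison depended on single libraries. The FAS call was lost without untreated WT replicate 2 (adjusted p = 0.0898) or 3 (0.0741) or untreated ID3-KO replicate 1 (0.0538), 2 (0.114) or 3 (0.144). Without untreated WT replicate 1, 6 members were called, and the share over all genes rose as well, from 15.2% to 41.1%. MDM2 was then higher in ID3-KO cells by 0.17 ± 0.04 (log2; adjusted p = 0.00105), PPM1D by 0.10 ± 0.04 (0.0486), GADD45A by 0.27 ± 0.05 (8.35e-06) and RRM2B by 0.13 ± 0.04 (0.00693). FAS was higher by 0.43 ± 0.07 (adjusted p = 3.43e-06), and the difference of TP53INP1 was -0.22 ± 0.06 (0.00123). With all libraries the differences were 0.31 ± 0.13 for MDM2, 0.17 ± 0.09 for PPM1D, 0.14 ± 0.11 for GADD45A, 0.22 ± 0.10 for RRM2B and -0.11 ± 0.11 for TP53INP1, with adjusted p from 0.170 to 0.549.

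**Figure D3:**
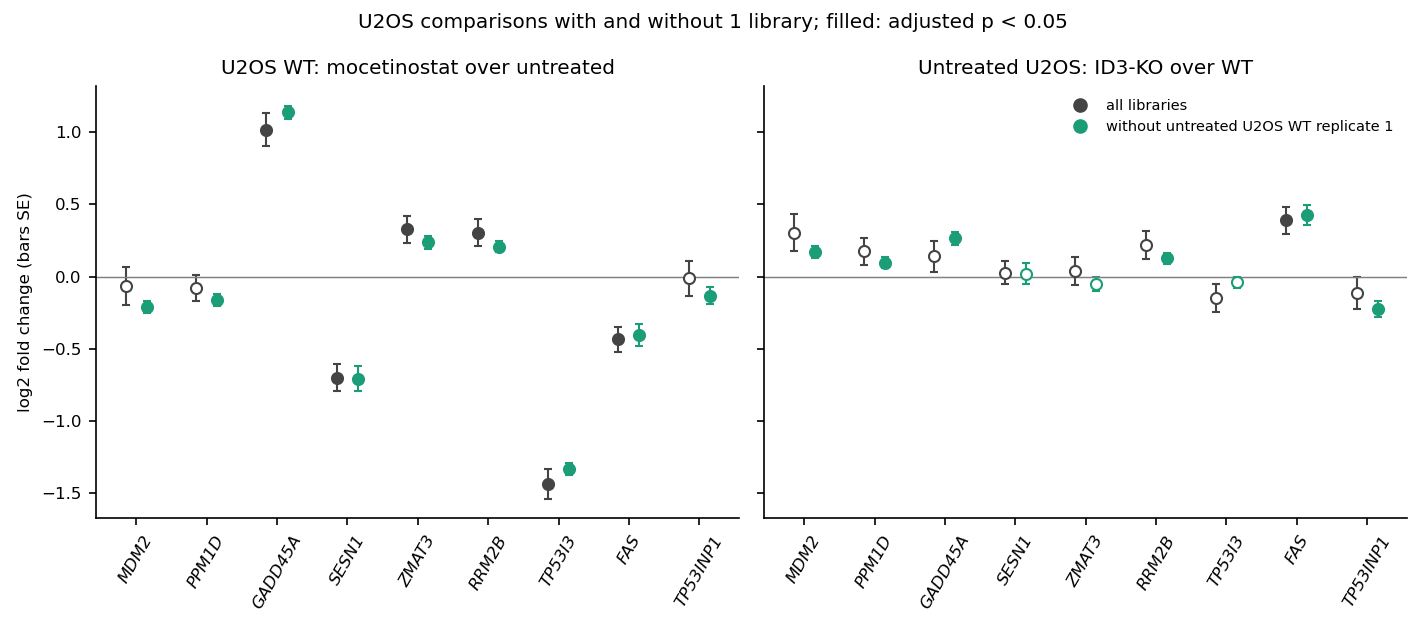
Log2 fold change with SE bars of the 9 genes in 2 comparisons of U2OS cells, mocetinostat over untreated WT cells (left) and untreated ID3-KO over WT cells (right), with all libraries (grey) and without replicate 1 of untreated U2OS WT (green), filled where the adjusted p was below 0.05. Without that library all 9 genes were called on the left and 6 on the right, with shorter bars, while the share called over all genes went from 48.9% to 66.4% and from 15.2% to 41.1%.

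Whether the genotype changed the response was tested by the interaction of genotype and treatment. No member was called in AID-DIvA cells, where 1.21% of 21265 genes were called, or in U2OS cells, where 2.15% of 22647 genes were called (edgeR). DESeq2 called 0 in both. At an unadjusted p below 0.05, 0 members in AID-DIvA and 1 in U2OS cells, TP53INP1, would have passed, beside 11.8% and 13.2% of all genes. The U2OS interaction of TP53INP1, the ID3-KO minus the WT response, was -0.34 ± 0.15 (adjusted p = 0.334), and in AID-DIvA cells it was -0.30 ± 0.18 (0.555). The rise of GADD45A in ID3-KO cells minus that in WT cells was -0.21 ± 0.14 in U2OS (0.558) and -0.09 ± 0.12 in AID-DIvA cells (0.810). Without untreated U2OS WT replicate 1 the former was -0.34 ± 0.08 and was called (adjusted p = 0.00583), where 9.03% of all genes were called. For the fall of TP53I3 in U2OS cells it was 0.21 ± 0.11 (0.446).

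Other p53 targets were counted in the same fits, with the call at an adjusted p below 0.05 (edgeR). Every gene named below as higher or lower with all libraries had an adjusted p of 0.0364 or less. A gene named for a response was among the 2 highest or 2 lowest called there, and may have been called in others as well. In U2OS WT cells, for instance, TRIAP1, CREBBP, PLK2 and RRM2 fell by 0.53, 0.92, 0.40 and 0.60. Over all genes the shares called were 48.9% in U2OS WT, 69.9% in U2OS ID3-KO, 46.9% in AID-DIvA WT and 40.1% in AID-DIvA ID3-KO cells. The median log2 changes of all genes tested were 0.0058, 0.00086, -0.00050 and -0.023 in the same order. The counts below were not read as particular to the lists. Of 10 genes of growth arrest, 4 rose and 4 fell in U2OS WT cells and 4 rose and 5 fell in U2OS ID3-KO cells. After recovery 9 of these were tested, with 4 higher and 2 lower in each genotype. The list's median log2 change was 0.23 and 0.14 in U2OS WT and ID3-KO cells and 0.14 and 0.21 in AID-DIvA cells. CDKN1A, which encodes the cyclin-dependent kinase inhibitor p21, rose in every response, by 0.92 ± 0.10 in U2OS WT (log2; adjusted p = 0.000195), 0.95 ± 0.05 in U2OS ID3-KO, 1.21 ± 0.06 in AID-DIvA WT and 0.94 ± 0.07 in AID-DIvA ID3-KO cells. GDF15, a secreted stress cytokine with a mean of 4.90 CPM, rose by 2.97 ± 0.14 and 3.71 ± 0.17 in AID-DIvA WT and ID3-KO cells and by 1.24 ± 0.29 and 1.65 ± 0.14 in U2OS cells. SFN (14-3-3 sigma) fell by 1.09 ± 0.18 in U2OS WT and 1.29 ± 0.05 in U2OS ID3-KO cells, and PHLDA3, an inhibitor of AKT, by 0.87 ± 0.19 and 0.80 ± 0.06. In AID-DIvA cells GADD45B, a relative of GADD45A, fell by 0.60 ± 0.10 in WT and 0.64 ± 0.09 in ID3-KO cells, CCNG1 fell by 0.22 ± 0.04 in WT cells and PLK2 by 0.22 ± 0.07 in ID3-KO cells.

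Of the 11 listed genes of cell death, 9 were tested in U2OS cells, with 4 higher and 2 lower in WT and 4 higher and 4 lower in ID3-KO cells. In AID-DIvA cells 8 were tested, with 5 higher and 2 lower in each genotype. The medians were 0.22 and 0.14 in U2OS WT and ID3-KO cells and 0.30 and 0.36 in AID-DIvA cells. PMAIP1 (NOXA), a BH3-only protein, rose by 1.28 ± 0.07 and 1.49 ± 0.05 in U2OS WT and ID3-KO cells and by 0.80 ± 0.08 and 0.68 ± 0.08 in AID-DIvA cells. BBC3 (PUMA), of the same class, rose by 0.67 ± 0.09 and 0.87 ± 0.11 in AID-DIvA WT and ID3-KO cells, and the death receptor gene TNFRSF10B by 0.56 ± 0.08 and 0.41 ± 0.04 in U2OS cells. BAX, a pore-forming BCL2 relative, fell by 0.72 ± 0.17 and 0.72 ± 0.05 in U2OS cells, and PIDD by 1.03 ± 0.16 and 1.03 ± 0.08. APAF1, the apoptosome scaffold, fell by 0.68 ± 0.06 and 0.96 ± 0.13 in AID-DIvA cells, and PERP by 0.15 ± 0.05 and 0.30 ± 0.09.

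Of the 10 listed genes of repair, redox and metabolism, 9 were tested in each response. In U2OS cells 1 rose and 5 fell in WT and 3 rose and 5 fell in ID3-KO cells, while 4 rose and 2 fell in AID-DIvA WT and 4 rose and 1 fell in AID-DIvA ID3-KO cells. DDB2, which recognises ultraviolet damage, fell by 0.83 ± 0.09 and 0.86 ± 0.04 in U2OS WT and ID3-KO cells, and CYFIP2 rose by 0.91 ± 0.08 and 0.66 ± 0.04. FDXR fell by 0.55 ± 0.17 in U2OS WT cells, and in U2OS ID3-KO cells TRIAP1 fell by 0.39 ± 0.06 and C12orf5 (TIGAR) rose by 0.33 ± 0.05. In AID-DIvA cells SESN2, a relative of SESN1, rose by 0.49 ± 0.07 and 0.48 ± 0.08, and the translesion polymerase gene POLH fell by 0.23 ± 0.05 and 0.32 ± 0.07. TRIAP1 rose by 0.29 ± 0.07 and XPC fell by 0.14 ± 0.05 in AID-DIvA WT cells, and RPS27L rose by 0.40 ± 0.06 in AID-DIvA ID3-KO cells. The median log2 fold changes of this list were -0.36 and -0.12 in U2OS WT and ID3-KO cells and 0.14 and 0.24 in AID-DIvA cells.

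**Figure D4:**
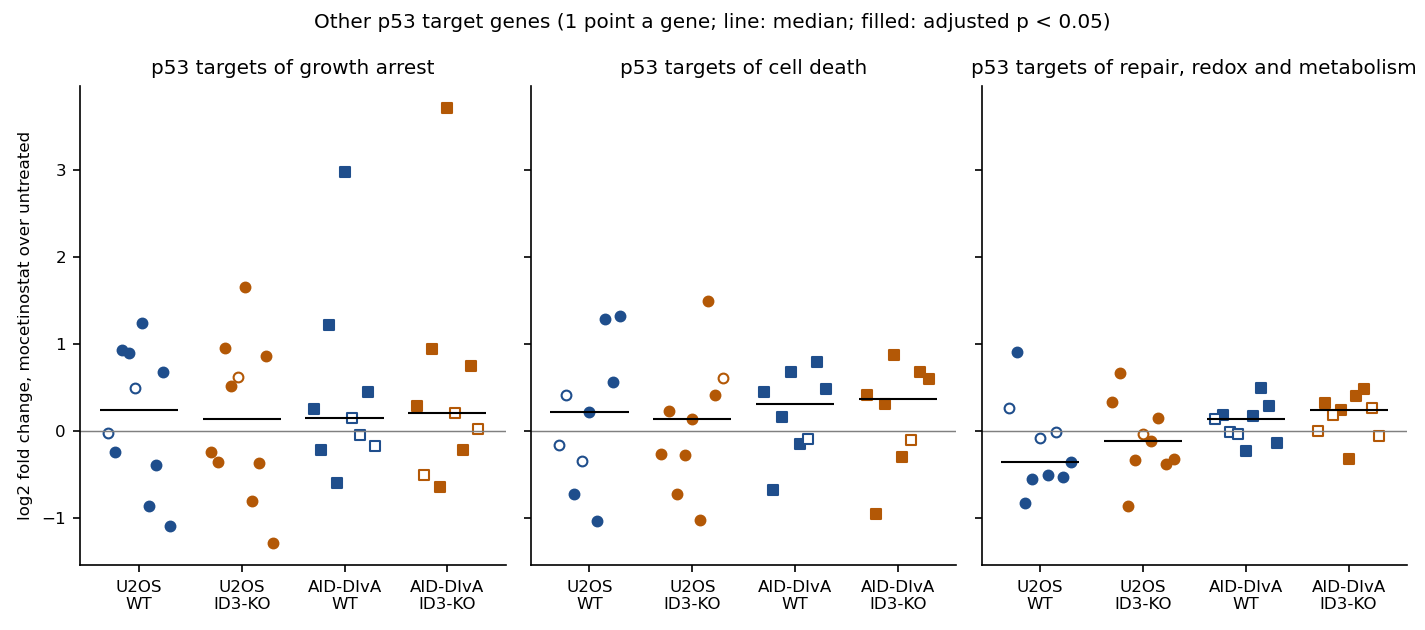
Log2 fold change of mocetinostat over untreated cells for every tested gene of 3 lists of p53 targets (1 panel a list, 1 point a gene, line at the median), in U2OS cells before recovery (circles) and AID-DIvA cells after recovery (squares), filled where the adjusted p was below 0.05. Rising and falling genes stand side by side in each list and response, and the repair, redox and metabolism list has its median at -0.36 in U2OS WT and 0.24 in AID-DIvA ID3-KO cells.

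Of 18 listed regulators of p53, 8 fell and 2 rose in U2OS WT cells, and 13 fell and 3 rose in U2OS ID3-KO cells. In AID-DIvA cells 9 of 16 tested fell in WT and 6 of 17 in ID3-KO cells, with none higher. Over all genes, 48.9%, 69.9%, 46.9% and 40.1% were called in these responses. The medians of the regulators were -0.31 and -0.36 in U2OS WT and ID3-KO cells and -0.15 and -0.16 in AID-DIvA cells. KAT5, the acetyltransferase TIP60, fell by 1.10 ± 0.07 and 1.24 ± 0.06 in U2OS WT and ID3-KO cells, and TP73, a p53 relative, by 1.15 ± 0.08 and 1.46 ± 0.07. The checkpoint kinase gene CHEK2 rose by 0.50 ± 0.05 in U2OS ID3-KO cells. The deacetylase gene SIRT1 fell by 0.28 ± 0.05 and 0.46 ± 0.12 in AID-DIvA WT and ID3-KO cells, CREBBP by 0.36 ± 0.05 in WT and ATR by 0.41 ± 0.14 in ID3-KO cells. Of 9 relatives of the members, 5 fell and 1 rose in U2OS WT cells, 6 fell and 3 rose in U2OS ID3-KO cells, and 4 fell and 1 rose in each AID-DIvA response. The medians were -0.36 and -0.21 in U2OS WT and ID3-KO cells and -0.08 and -0.19 in AID-DIvA cells. RRM1, the large subunit that RRM2B partners with, fell by 0.86 ± 0.07 and 0.89 ± 0.04 in U2OS cells, and RRM2, the subunit of dividing cells, fell by 0.81 ± 0.04 and 0.98 ± 0.06 in AID-DIvA cells. SESN3 fell by 1.36 ± 0.09 and 1.27 ± 0.19 in AID-DIvA WT and ID3-KO cells and rose by 0.65 ± 0.05 in U2OS ID3-KO cells. MDM4, the relative of MDM2, fell by 0.68 in U2OS WT and by 0.72 ± 0.06 in U2OS ID3-KO cells. ZMAT2 fell by 0.69 ± 0.09 in U2OS WT cells, and PPM1G rose in all 4 responses by 0.21 to 0.40.

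In the U2OS WT response without untreated replicate 1, a count added after the data were seen, 4 genes of growth arrest were higher and 4 lower, 5 of cell death higher and 4 lower, and 2 of repair, redox and metabolism higher and 6 lower. Of the regulators 3 were then higher and 13 lower, and of the relatives 1 higher and 7 lower. The medians were 0.25, 0.23, -0.31, -0.42 and -0.37 in this order, beside 0.00090 for all genes tested. The share called over all genes rose in this fit too, from 48.9% to 66.4%. No called gene of these lists changed sign, and 1 call was lost, that of TP53AIP1 in the cell death list (1.25 ± 0.66, log2; adjusted p = 0.0913), named here after its value was seen. FDXR then fell by 0.31 ± 0.04.

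The 9 genes did not vary as 1 block over the 24 libraries. Pearson's r of log2 CPM (with a pseudocount of 0.5 CPM) was positive in 27 of 36 pairs, with a median of 0.32. It was highest for SESN1 with FAS (0.87), ZMAT3 with RRM2B (0.84) and SESN1 with TP53I3 (0.82), and lowest for GADD45A with FAS (-0.60) and with TP53I3 (-0.60). The points share the 8 groups, so these values describe group differences as much as variation within groups. Among 15592 genes with a mean of at least 1 CPM, the closest to TP53I3 were H2AFY2 and NR1H2 (r = 0.99 and 0.98), to GADD45A RRP12 and KRT34 (0.98 and 0.97), to SESN1 SMEK1 and CHEK1 (0.98 and 0.97) and to MDM2 RFC1 and XRCC2 (0.97 and 0.97). Closest to FAS were DEK and RBMS1 (0.96 and 0.95), to ZMAT3 ATP6V1A and MFN1 (0.95 and 0.94) and to PPM1D SUPT20H and DCLRE1C (0.93 and 0.91). Those of TP53INP1, RP11-890B15.3 and FAM214A, had the lowest values given here, 0.78 and 0.76.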

How the data were processed

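Total RNA from 24 libraries, 8 groups of 3 biological replicates, was sequenced after stranded library preparation. The authors aligned reads with STAR to hg19 (GRCh37) and deposited raw read counts per gene from featureCounts; tool versions are not given in the sources used here. Counts from either strand were used. Groups came from the sample titles. Levels are CPM, counts scaled to library size, with TMM factors over the 24 libraries, and per kilobase between genes.

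Each comparison was fitted over all genes with edgeR 4.0.16 in R 4.3.3 (filterByExpr, TMM, robust quasi-likelihood test), and genes were called at a Benjamini-Hochberg adjusted p below 0.05. Responses and untreated contrasts used their own 6 libraries, interactions 12 and the test of before against after recovery 24. Alternatives were DESeq2 1.42.0, its size factors within edgeR, a replicate block, all genes without the low-count filter, reverse-strand counts, a log2 threshold of 1 and leaving out each library. The tests were checked on counts simulated with the same dispersion for every gene: of genes given a log2 change of 1.5 up or down, 98.4% were called in the right direction in the AID-DIvA WT response (19996 genes) and 85.9% in the AID-DIvA interaction (20861 genes), with 4.06% and 3.93% of calls false. Each simulation changed only 200 genes, and no simulated library stood apart. No U2OS comparison and no smaller change was simulated, so these rates do not carry over to the U2OS calls or to small changes of members. Replicate numbers were not taken to pair the samples.

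The members and lists were chosen with earlier results of these data known. Named genes are the members, the 2 genes most correlated with each, and the 2 called genes highest and lowest in each list per response, with a mean of at least 1 CPM. Promoter windows came from RefSeq (GRCh38.p14), a build other than that of the counts. Normalized columns of the files and other assays of the study were not used here. Some genes that these rules and lists name are not reported here.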

Additional observations from a re-analysis of the deposited data

Results flagged for a closer look

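The mocetinostat responses of 5 members differed between the experiment after recovery in AID-DIvA cells and the one before recovery in U2OS cells, by edgeR's test of that difference over 24 libraries. For TP53I3 the log2 difference, after minus before, was 1.49 in WT and 1.24 in ID3-KO cells. For SESN1 it was 0.65 in WT and 0.44 in ID3-KO cells. ZMAT3 differed by -0.29 in WT and -0.31 in ID3-KO cells. RRM2B differed by -0.36 in ID3-KO cells and by -0.34 in WT cells, where the test was missed (adjusted p = 0.0563). FAS differed by 0.38 in ID3-KO cells, against -0.02 in WT cells. Whether these differences themselves differed between the genotypes was not tested. The stage of recovery and the cell line label cannot be told apart in these differences.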

How the results depend on the processing

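Of 32 called differences of the members, refitted in 496 settings, 432 kept their direction and call, 64 lost the call and 0 changed sign. Of 58 that were not called, refitted in 926 settings, 26 became called and 55 changed sign, with 0 both. With the call also requiring a log2 fold change beyond 1, 1 member was called in the AID-DIvA WT response, 0 in the AID-DIvA ID3-KO response, 2 in the U2OS WT response, 1 in the U2OS ID3-KO response, 0 in either untreated comparison and 1 in each comparison of after with before recovery. DESeq2 called 1 in the AID-DIvA ID3-KO response, and reverse-strand counts 1 in untreated AID-DIvA cells. With the replicate number as a block, 1 was called in the AID-DIvA ID3-KO response, 1 in untreated AID-DIvA cells and 0 in untreated U2OS cells, and RRM2B after against before recovery in WT cells passed (adjusted p = 0.0466). Same-numbered libraries did not deviate together (18 correlations from -0.32 to 0.21, 1 of them above 0.1), so the numbers were not taken to pair them. Without TMM factors the highest over the lowest group mean was 1.52 for MDM2, 1.75 for SESN1 and 1.83 for FAS. The cause of these shifts was not tested, except that a stricter rule calls fewer genes by construction.

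Leaving out 1 library gave 4 to 6 members called in the AID-DIvA WT response (38.6% to 52.5% of all genes called), 1 to 2 in the AID-DIvA ID3-KO response (28.2% to 40.9%), 4 to 9 in the U2OS WT response (35.9% to 66.4%) and 7 to 8 in the U2OS ID3-KO response (65.0% to 68.4%). It gave 1 to 5 in untreated AID-DIvA cells (28% to 44.4%), 0 to 6 in untreated U2OS cells (6.02% to 41.1%), 0 in the AID-DIvA interaction (0.562% to 1.37%) and 0 to 1 in the U2OS interaction (1.1% to 9.03%). After against before recovery it gave 2 to 4 in WT (40.3% to 47.1%) and 2 to 5 in ID3-KO cells (41.3% to 51.8%). Without untreated U2OS WT replicate 1, a setting added for the lists after the data were seen, 16 regulators were called in the U2OS WT response, against 10. The share over all genes went from 48.9% to 66.4% there. Uncalled log2 differences that crossed 0 on leaving out 1 library had these ranges. In the AID-DIvA ID3-KO response they were -0.068 to 0.086 for MDM2, -0.20 to 0.12 for RRM2B, -0.063 to 0.068 for TP53I3, -0.21 to 0.053 for TP53INP1 and -0.11 to 0.025 for ZMAT3. In the U2OS responses they were -0.21 to 0.033 for MDM2 and -0.13 to 0.049 for TP53INP1 in WT and -0.042 to 0.013 for PPM1D in ID3-KO cells. In untreated U2OS cells they were -0.0090 to 0.062 for SESN1 and -0.049 to 0.10 for ZMAT3. In the AID-DIvA interaction they were -0.16 to 0.025 for GADD45A, -0.16 to 0.15 for RRM2B, -0.13 to 0.015 for SESN1 and -0.11 to 0.028 for TP53I3. In the U2OS interaction they were -0.18 to 0.062 for MDM2, -0.048 to 0.098 for RRM2B and -0.14 to 0.014 for ZMAT3. In the WT comparison of after with before recovery they were -0.060 to 0.025 for FAS and -0.11 to 0.087 for GADD45A. Other settings turned the sign of TP53I3 in the AID-DIvA ID3-KO response (0.011 with DESeq2 size factors and with DESeq2, 0.0035 without a filter), SESN1 in untreated AID-DIvA cells (-8.7e-05, reverse strand), RRM2B in the AID-DIvA interaction (0.0053, no filter) and in the U2OS interaction (-0.0023 with the block, -0.0096 on the reverse strand) and GADD45A after against before recovery in WT cells (3.0e-05, DESeq2).

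SESN1 had the fewest counts, 297 to 909 per library, but not the largest SE in every response. In the AID-DIvA ID3-KO response its SE was 0.10, against 0.14 for RRM2B, which had 2758 to 7859 counts. In the U2OS ID3-KO response its SE of 0.077 was the largest of the members.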
